A study of Mus musculus with 18 samples.

Results

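The enzymes of the urea cycle and 4 enzymes that start the breakdown of single amino acids were followed across mouse liver tumors. The 10 genes were chosen by name, by their known roles and not by a measured threshold, from the 43346 genes of the tumor table, although earlier results of these data were known when they were chosen. They were Nags, Cps1, Otc, Ass1, Asl and Arg1 of the urea cycle, and Hal, Sds, Tat and Tdo2 of amino acid breakdown. All 10 were found once each, and all 10 were among the 18318 genes that passed the filter on low counts.

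The tumors had been raised in mice with myr-AKT, an AKT form held at the membrane and so active, together with a mutant of the transcriptional co-activator YAP. YAP-SY tumors carried YAP S127A/Y357F. YAP-S tumors carried YAP S127A, a change that YAP-SY shares and that removes a site through which the Hippo kinases restrain YAP. Y357 is a tyrosine that Src family kinases phosphorylate, and phenylalanine there cannot be phosphorylated. Tumors of either form were labelled as CCA (cholangiocarcinoma, a bile duct cancer) or as mixed, which gave 4 groups of 3: YAP-SY CCA (tumors 1, 6 and 8), YAP-S CCA (tumors 3, 4 and 5), YAP-SY mixed (tumors 3, 5 and 9) and YAP-S mixed (tumors 2, 7 and 9). All 4 groups received myr-AKT, every tumor carried a mutant YAP and normal liver was not analysed here, so no value is relative to healthy tissue. The strain, age and sex of the mice, and the cell type in which the transgenes acted, are not given in the labels. Samples are tumor nodules. The labels do not say whether those of a group came from different mice, so p-values measure only the spread between these samples. The cell line SB1, which carries the genotype label of YAP-S CCA, gave 3 further samples of 1 line. The 3 samples of the cell line SY1 were not analysed here.

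The urea cycle turns ammonia into urea for excretion, and the complete cycle runs in hepatocytes. Its first steps lie in mitochondria. NAGS makes N-acetylglutamate, the obligate activator of CPS1, which joins ammonia and bicarbonate to carbamoyl phosphate, and OTC passes that group to ornithine to give citrulline. The later steps lie in the cytosol, where ASS1 adds aspartate, ASL releases fumarate and arginine, and ARG1 splits arginine into urea and ornithine. In the liver lobule these enzymes are richest around the portal vein, as are histidase (HAL) and serine dehydratase (SDS), which release ammonia from histidine and serine. TAT starts tyrosine breakdown and TDO2 starts tryptophan breakdown. Both are classic glucocorticoid-induced liver enzymes.

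Total counts ran from 30656499 to 130035221 in the 12 tumors. Levels are given as CPM, counts divided by the TMM-scaled size of the library, in the usual CPM unit, and show RNA, not protein or enzyme activity. YAP-SY CCA tumor 1 had the fewest detected genes, 18207, against 20440 to 24391 in the other tumors. Hepatocyte genes were abundant in all 4 groups, whatever the label. The sum of 17 hepatocyte genes, among them Alb (albumin), was 189000 to 205000 CPM in YAP-SY CCA, 72200 to 89500 in YAP-S CCA, 122000 to 158000 in YAP-SY mixed and 124000 to 130000 in YAP-S mixed tumors. The sum of 8 cholangiocyte markers, among them Krt19 and Sox9, was 2790 to 4230, 7650 to 11000, 4350 to 16500 and 9550 to 10300 CPM in the same order of groups. The tumors labelled YAP-SY CCA therefore held less cholangiocyte marker RNA than those labelled YAP-S CCA, and more hepatocyte RNA than either mixed group. No marker on either list was at 0 in any tumor. In bulk tissue, fewer cells of a type and less RNA per cell cannot be told apart, and this applies to every level below.

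The 10 genes together took 0.495% (YAP-S CCA tumor 5) to 1.18% (YAP-SY CCA tumor 6) of all counts of a tumor. Much of this was Cps1, with 0.446 to 0.541% in YAP-SY CCA tumors and 0.209 to 0.291% in YAP-S CCA tumors. Levels of different genes were compared as CPM per kilobase of the gene length listed in the tumor table. On that scale Cps1 led in YAP-SY CCA tumors with a level of 1080 ± 157 (SD, n = 3), above Arg1 at 777, and Arg1 lay above Ass1 at 624, without overlap between neighbours. Ass1, Tdo2 (533) and Tat (503) overlapped one with the next, followed by Otc at 147. Hal (89.5), Asl (69.9) and Sds (43.0) overlapped likewise, and Nags was last at 14.5, below all of them. The order in YAP-S CCA tumors differed at the top, where Tat (426 ± 219 per kilobase), Cps1 (382), Arg1 (362) and Ass1 (263) overlapped one with the next. Tdo2 stood apart below them at 157, then Otc (43.8), Asl (39.6), Sds (32.0) and Hal (31.5) overlapped, and Nags was again last at 9.73. In YAP-SY mixed and YAP-S mixed tumors Cps1 had the highest mean, at 624 and 561 per kilobase, and Nags the lowest, at 13 and 13.6. Cps1 overlapped the next gene in both, Arg1 (468) in YAP-SY mixed and Tat (556) in YAP-S mixed tumors, and Nags overlapped Sds in YAP-SY mixed tumors.

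The first comparison set YAP-SY against YAP-S within tumors of the CCA label. These groups also differed in hepatocyte and cholangiocyte marker RNA, as given above. The parts of the YAP tyrosine, the label and the sampling were not tested apart from each other. Tdo2, Otc, Hal, Cps1, Ass1 and Arg1 were higher in YAP-SY CCA tumors, by 2.15 to 3.39 times, and in each of the 6 genes every YAP-SY tumor lay above every YAP-S tumor. Asl, Nags, Sds and Tat did not pass the test, and their groups overlapped. So 6 of 10 genes were called higher and none lower by edgeR's quasi-likelihood test at an adjusted p below 0.05. This stands against a background in which 39.1% of all tested genes were called, 18.3% higher and 20.8% lower, and in which 24.3% had all YAP-SY CCA tumors above all YAP-S CCA tumors and 28.3% below them. The median log2 fold change was 1.18 over the 10 genes and 0.00 over all genes. Scaling by total counts alone moved the median of all genes to -0.57 and that of the 10 genes to 0.62, with 5 of the 10 called higher, so the 10 lay 1.19 above all genes there and 1.18 above them with TMM.

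**Figure D1:**
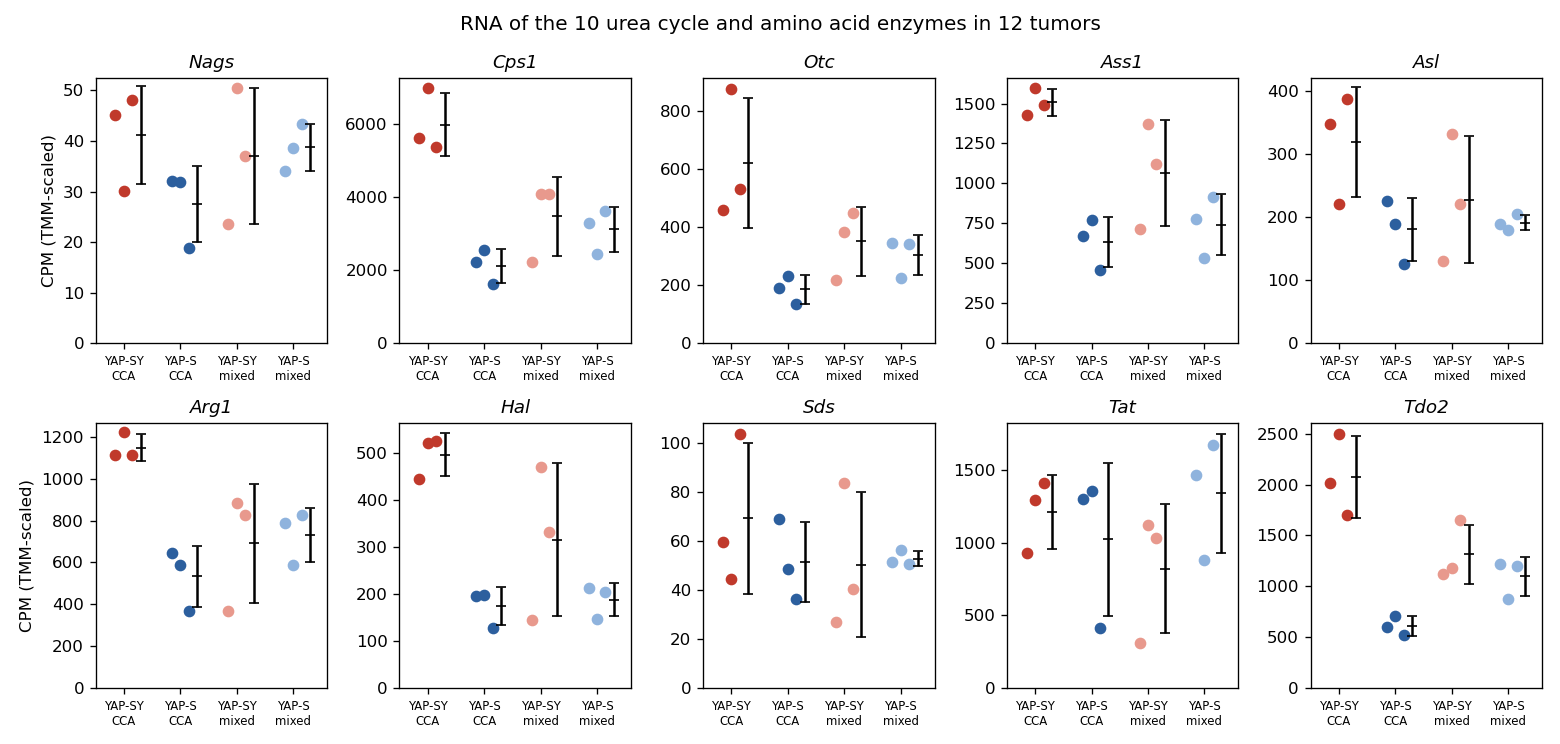
RNA level in CPM (linear axes that start at 0, TMM-scaled libraries) of each of the 10 genes in 12 tumors, with 1 point per tumor and bars for mean ± SD of the 3 tumors of a group. In the panels of Cps1, Otc, Ass1, Arg1, Hal and Tdo2 the 3 YAP-SY CCA tumors sit above the 3 YAP-S CCA tumors, while those of Nags, Asl, Sds and Tat overlap.

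Among the mitochondrial steps, Cps1 (ENSMUSG00000025991, mm10 chr1:67123026-67231259) reached 5600, 6970 and 5360 CPM in tumors 1, 6 and 8 of the YAP-SY CCA group, against 2210, 2540 and 1610 CPM in tumors 3, 4 and 5 of the YAP-S CCA group. The other genes below follow the same tumor order. The lowest YAP-SY tumor was still above the highest YAP-S tumor. Its log2 fold change was 1.495 (SE 0.27, edgeR adjusted p = 0.00122), which is 2.82 times. Otc (ENSMUSG00000031173, mm10 chrX:10252305-10321024) had 458, 876 and 532 CPM in YAP-SY CCA and 190, 233 and 135 CPM in YAP-S CCA tumors. YAP-SY CCA tumor 6 stood highest of all 12 tumors in both genes, and the groups did not overlap. The log2 fold change of Otc was 1.74 (SE 0.32, adjusted p = 0.00136), or 3.35 times. Nags (ENSMUSG00000048217, mm10 chr11:102145513-102149477), which sets the activity of CPS1 through its product, had 45.2, 30.2 and 48.1 CPM in YAP-SY CCA and 32.1, 31.8 and 18.9 CPM in YAP-S CCA tumors. Its groups overlapped at YAP-SY CCA tumor 6, the tumor with the most Cps1 and Otc RNA. The log2 difference of 0.57 (SE 0.28) had an adjusted p of 0.118. An antisense gene, Gm11586, overlaps 698 bases of Nags, with counts of at most 107, against 6491 for Nags. The library kit does not mark strand, so reads of these 2 genes cannot be told apart there.

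Of the cytosolic steps, Ass1 (ENSMUSG00000076441, mm10 chr2:31470207-31520672) had 1430, 1600 and 1490 CPM in YAP-SY CCA tumors, against 674, 769 and 460 CPM in YAP-S CCA tumors. Arg1 (ENSMUSG00000019987, mm10 chr10:24915208-24927470) had 1110, 1220 and 1110 CPM in YAP-SY CCA and 645, 589 and 370 CPM in YAP-S CCA tumors. Both genes were tight within YAP-SY CCA, where the highest tumor had 1.12 times (Ass1) and 1.09 times (Arg1) the level of the lowest, and neither overlapped between the groups. Ass1 rose by 1.25 on the log2 scale (SE 0.27, adjusted p = 0.0032). Arg1 rose by 1.10 (SE 0.30, adjusted p = 0.0115), and its call was lost without YAP-S CCA tumor 5 (log2 0.88, adjusted p 0.0555; over the 6 fits that left out 1 CCA tumor, 0.0182 to 0.0555) and when libraries were scaled by total counts alone (log2 0.55, adjusted p 0.0957, within 0.000825 to 0.0957 over the alternative methods). Asl (ENSMUSG00000025533, mm10 chr5:130011258-130025132), whose enzyme stands between ASS1 and ARG1, had 348, 221 and 388 CPM in YAP-SY CCA and 226, 190 and 126 CPM in YAP-S CCA tumors. YAP-SY CCA tumor 6 and YAP-S CCA tumor 3 were nearly level, and the rest were apart. Its log2 difference of 0.82 (SE 0.31) missed the threshold with an adjusted p of 0.0526, which moved between 0.0216 and 0.471 over the other methods. It passed without YAP-S CCA tumor 3 (log2 0.998, adjusted p 0.048) or YAP-SY CCA tumor 6 (1.03, adjusted p 0.0324), in a range of 0.0324 to 0.19 over the fits that left out 1 tumor.

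Of the 4 breakdown enzymes, Tdo2 and Hal rose while Tat and Sds did not pass. Promoter windows of 300 bases, 250 before to 50 after the gene start, were found for 6 of the 10 genes (Ass1, Hal, Nags, Otc, Tat and Tdo2) in the RefSeq table of GRCm38.p6. Those of Cps1, Arg1, Asl and Sds are not shown. The windows of Hal, Tdo2 and Tat are printed because these genes parted in the tumors, with Tat not called where Hal and Tdo2 rose. They are Hal on the plus strand of chr10:93488518-93488817, Tdo2 on the minus strand of chr3:81975679-81975978 and Tat on the plus strand of chr8:109990186-109990485, each written 5′ to 3′ along its gene, with capitals marking motif matches.
Hal: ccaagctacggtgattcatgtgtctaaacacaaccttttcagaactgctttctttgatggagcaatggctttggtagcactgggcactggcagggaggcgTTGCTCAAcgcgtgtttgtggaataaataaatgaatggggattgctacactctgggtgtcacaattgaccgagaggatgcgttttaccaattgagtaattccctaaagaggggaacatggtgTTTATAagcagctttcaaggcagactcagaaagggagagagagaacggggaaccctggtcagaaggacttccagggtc
Tdo2: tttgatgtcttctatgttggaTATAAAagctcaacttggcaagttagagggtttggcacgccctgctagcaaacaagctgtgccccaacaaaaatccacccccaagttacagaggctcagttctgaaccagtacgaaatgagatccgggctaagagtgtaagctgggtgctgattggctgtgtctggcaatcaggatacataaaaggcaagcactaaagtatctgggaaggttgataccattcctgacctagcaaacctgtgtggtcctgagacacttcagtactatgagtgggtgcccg
Tat: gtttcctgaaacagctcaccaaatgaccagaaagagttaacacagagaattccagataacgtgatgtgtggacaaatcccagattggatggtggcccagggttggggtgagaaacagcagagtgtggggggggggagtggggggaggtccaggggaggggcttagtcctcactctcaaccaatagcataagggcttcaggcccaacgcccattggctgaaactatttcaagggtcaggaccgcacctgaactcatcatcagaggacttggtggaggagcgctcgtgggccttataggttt
On both strands 7 sequences were searched, and 32851 RefSeq windows of the same length gave the background. These were the C/EBP core TTGCNNAA (in 10.8% of all windows), the cAMP response element TGACGTCA (1.79%), an HNF4 core CAAAGTCCA (0.475%), a short HNF1 element GTTAAT (7.10%), a FOXA core TGTTTAC (3.65%), a short glucocorticoid receptor element TGTTCT (19.0%) and the TATA box TATAAA (13.6%). The Hal window held a C/EBP core at bases -150 to -143 from the start, written TTGCTCAA, and a TATA box on the other strand at -28 to -23, written TTTATA. The Tdo2 window held a TATA box at -229 to -224. No match was found in the windows of Tat, Ass1, Nags and Otc. A match is a string of letters and not a bound site, and the RefSeq start of Tdo2 lies inside the gene as the tumor table bounds it.

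Tdo2 (ENSMUSG00000028011, mm10 chr3:81957090-81976202) had 2010, 2500 and 1700 CPM in YAP-SY CCA tumors, against 598, 713 and 521 CPM in YAP-S CCA tumors. The gap between the groups was wide beside the spread within them. With 3.39 times, or 1.76 on the log2 scale (SE 0.22, adjusted p = 0.000191), it had the largest change of the 10 genes in this fit. Hal (ENSMUSG00000020017, mm10 chr10:93488768-93519304) had 444, 520 and 525 CPM in YAP-SY CCA and 197, 198 and 128 CPM in YAP-S CCA tumors, again without overlap. It rose by 1.51 on the log2 scale (SE 0.34, adjusted p = 0.00404), or 2.84 times. Tat (ENSMUSG00000001670, mm10 chr8:109990437-109999803) had 925, 1290 and 1410 CPM in YAP-SY CCA and 1300, 1350 and 417 CPM in YAP-S CCA tumors. YAP-S CCA tumor 5 was far below its group and the other tumors were mixed together. The log2 difference of Tat was 0.24 (SE 0.48, adjusted p = 0.721), and it was -0.15 without YAP-S CCA tumor 5. Sds (ENSMUSG00000029597, mm10 chr5:120476531-120483932) had 59.6, 44.6 and 104 CPM in YAP-SY CCA and 69.1, 48.9 and 36.6 CPM in YAP-S CCA tumors, with YAP-SY CCA tumor 8 highest. Its log2 difference was 0.43 (SE 0.38, adjusted p = 0.402). Scaling by total counts alone turned both Tat (-0.30) and Sds (-0.12) negative. The end of Sds overlaps 651 bases of Plbd2 on the other strand, a gene with up to 8563 counts. The antisense gene Gm15690, with at most 21 counts, overlaps 1062 bases of Sds. The library kit does not mark strand, so reads of Sds and of either gene cannot be told apart there.

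Marker lists moved with these 6 genes in CCA tumors. Of 17 hepatocyte genes 16 were higher in YAP-SY CCA tumors and none lower, with a median log2 fold change of 1.14. Of 8 cholangiocyte markers 7 were lower and none higher (median -2.06), and of 7 fibroblast and stellate markers 6 were lower (median -2.37), with summed levels of 426 to 599 CPM in YAP-SY CCA and 1860 to 2340 CPM in YAP-S CCA tumors. Of 5 leukocyte markers 4 were lower, with sums of 38.1 to 54.3 CPM in YAP-SY CCA and 70 to 113 CPM in YAP-S CCA tumors. The 4 endothelial markers, with 1 higher and 1 lower, summed to 253 to 363 CPM in YAP-SY CCA and 226 to 304 CPM in YAP-S CCA tumors. Scaling by total counts, with 4.15% of all genes called higher and 44% lower, gave 9 of 17 hepatocyte genes higher (median 0.59) and 8 of 8 cholangiocyte markers lower. Without YAP-S CCA tumor 5, with 11.2% of all genes higher and 16.2% lower, 13 of 17 hepatocyte genes were higher, and 5 of 8 cholangiocyte and 2 of 5 leukocyte markers were lower. None of these markers was at 0 in any tumor, and the part of cell makeup in the enzyme differences was not tested.

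To set each enzyme beside other hepatocyte RNA of the same tumor, the mean log2(CPM + 1) of the 17 hepatocyte genes was subtracted from its own. That mean was 12.40, 12.31 and 12.33 in YAP-SY CCA tumors 1, 6 and 8, and 11.38, 11.43 and 11.03 in YAP-S CCA tumors 3, 4 and 5. Relative to it, Tdo2 was still higher in YAP-SY CCA tumors by a log2 difference of 0.69 (pooled SD 0.22), Otc by 0.65 (0.40), Hal by 0.46 (0.16) and Cps1 by 0.44 (0.19), with no overlap between the groups in any of these 4 genes. Ass1 (0.21) and Arg1 (0.07), which had risen in the plain comparison, overlapped on this scale. Asl (-0.25), Nags (-0.50), Tat (-0.67) and Sds (-0.69) overlapped with differences below 0. The choice of hepatocyte genes decides this result. Set against Alb alone, the relative differences of Cps1, Otc, Hal and Tdo2 shrank to -0.002, 0.20, 0.01 and 0.24 and all 4 overlapped, while Nags (-0.94) and Sds (-1.13) were lower in every YAP-SY CCA tumor. These relative levels are descriptions and carry no test, and how many of all genes would separate on either scale was not counted.

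**Figure D2:**
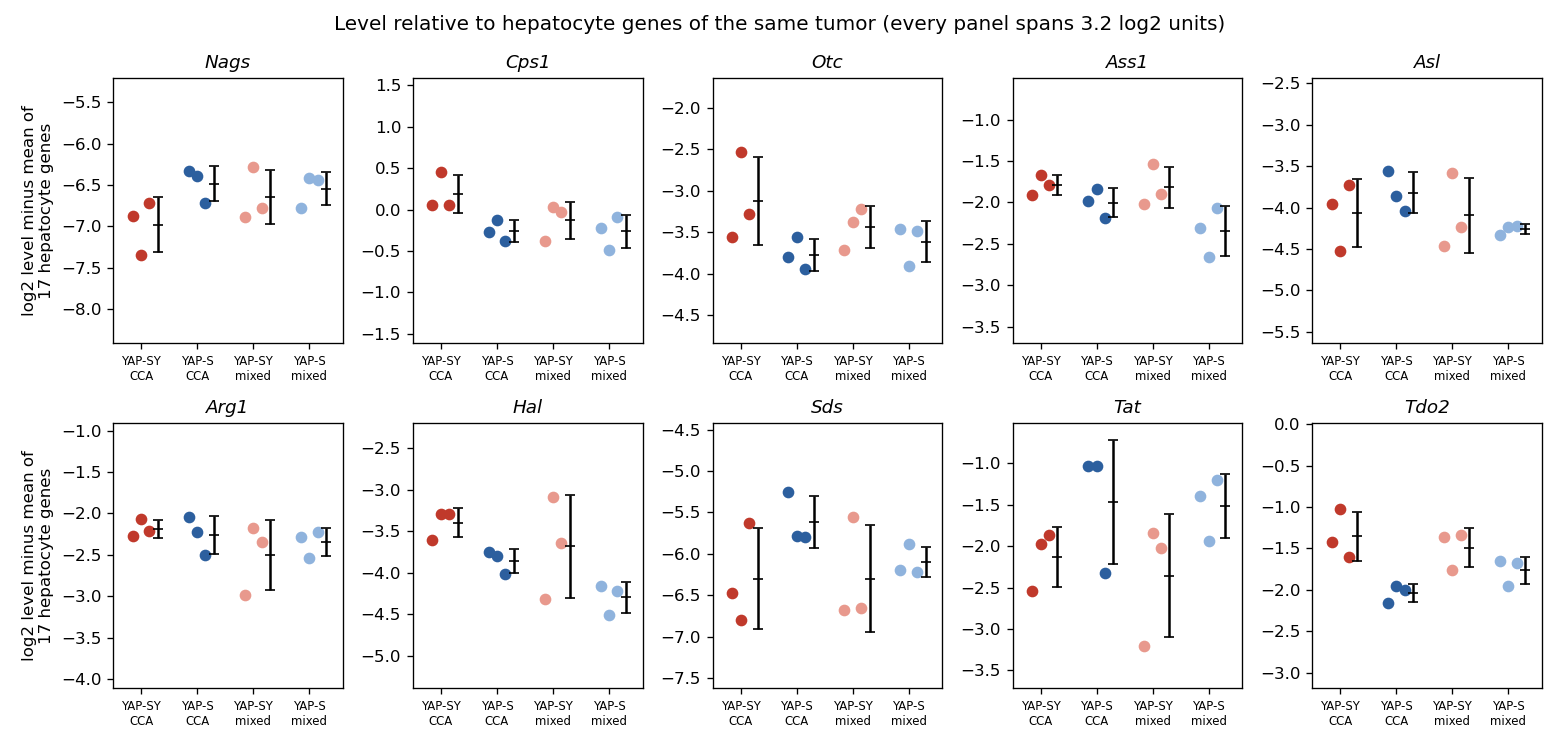
Log2 level of each gene minus the mean log2 level of 17 hepatocyte genes in the same tumor, with 1 point per tumor and bars for mean ± SD of 3 tumors; every panel spans the same length of log2 scale. For Cps1, Otc, Hal and Tdo2 the YAP-SY CCA points stay above the YAP-S CCA points, by 0.44 to 0.69 on average.

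In mixed tumors, YAP-SY against YAP-S, none of the 10 genes passed the threshold, against 0% of all 18318 genes. Log2 differences ran from -0.71 (Tat) to 0.74 (Hal) with a median of 0.18, and the edgeR adjusted p was 0.999 for each gene. Hal alone among the 10, with an unadjusted p of 0.0427 in edgeR, was below 0.05, as were 551 of all 18318 genes. DESeq2 called 11 genes, none of them among the 10, and limma-voom called none of the 10. No enzyme had separate groups in CPM here, where 4.30% of all genes were higher and 4.05% lower in every YAP-SY mixed tumor. Cps1 had 4090, 2220 and 4090 CPM in YAP-SY mixed tumors 3, 5 and 9, against 3300, 2430 and 3620 CPM in YAP-S mixed tumors 2, 7 and 9. Hal had 333, 145 and 470 CPM in YAP-SY mixed and 213, 148 and 205 CPM in YAP-S mixed tumors. In both genes YAP-SY mixed tumor 5 was the lowest of all 6 mixed tumors while the other 2 of its group were the highest.

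Ass1 averaged 1070 ± 332 CPM in YAP-SY mixed and 742 ± 191 CPM in YAP-S mixed tumors (SD, n = 3 each). Tdo2 averaged 1320 ± 290 CPM in YAP-SY mixed and 1100 ± 190 CPM in YAP-S mixed tumors. Tat averaged 820 ± 441 CPM in YAP-SY mixed and 1340 ± 407 CPM in YAP-S mixed tumors. None of these 3 genes passed, and their groups overlapped. Cholangiocyte markers in the YAP-SY mixed group ranged widely, from 4350 to 16500 CPM in sum, against 9550 to 10300 CPM in YAP-S mixed tumors.

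**Figure D3:**
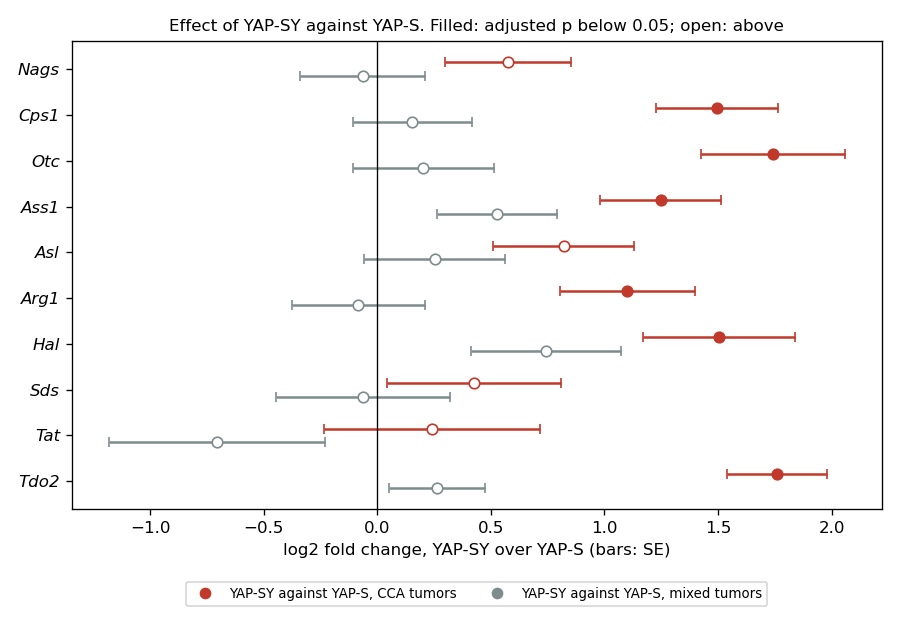
Log2 fold change of YAP-SY over YAP-S for each gene, in CCA tumors (red) and mixed tumors (grey), with bars for the SE of the edgeR fit; filled points passed an adjusted p of 0.05. In CCA tumors 6 of the 10 points are filled and all lie above 0, and in mixed tumors none is filled.

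Whether the effect of YAP-SY differed between the labels was tested directly, as the CCA effect minus the mixed effect. It was larger in CCA for 3 of the 10 genes, where 15.2% of all genes were called, 5.02% in that direction and 10.2% in the other. The median over the 10 genes was 0.855. Of 17 hepatocyte genes 11 were called in that direction and none in the other, with a median of 1.116. For Otc the log2 difference of effects was 1.54 (SE 0.44, edgeR adjusted p = 0.0351), for Tdo2 1.498 (SE 0.30, adjusted p = 0.0094) and for Cps1 1.34 (SE 0.37, adjusted p = 0.032). Of the 3, Tdo2 kept its call in every alternative, with adjusted p from 3.58e-05 to 0.0311. Cps1 and Otc lost theirs when libraries were scaled by total counts alone (0.84 and 1.04 on the log2 scale). They also lost it in 5 and 6 of the 12 fits that left out 1 tumor, over which the adjusted p ran from 0.026 to 0.0843 for Cps1 and from 0.025 to 0.092 for Otc. The differences of Cps1 and Otc, in that order, were 1.30 and 1.44 without YAP-S mixed tumor 2 and 1.21 and 1.44 without YAP-S mixed tumor 9. They were 1.37 and 1.56 without YAP-S CCA tumor 3, 1.18 and 1.35 without YAP-S CCA tumor 5, and 1.22 and 1.21 without YAP-SY CCA tumor 6, and Otc had 1.29 without YAP-SY mixed tumor 5. The other 7 genes had differences from 0.49 (Sds) to 1.19 (Arg1, adjusted p = 0.0711) and did not pass in edgeR. Arg1 passed in DESeq2 and limma-voom, where 23.1% and 16% of all genes were called. Its adjusted p ran from 0.0237 to 0.177 over the alternative methods. For Ass1 (0.72, adjusted p = 0.203) and Hal (0.76, adjusted p = 0.281), a call in CCA tumors and none in mixed tumors thus came without a tested difference between them.

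CCA tumors were then set against mixed tumors within each YAP form, and none of the 10 genes passed the edgeR threshold in either. In YAP-SY the 10 log2 differences, CCA minus mixed, were all above 0, from 0.15 (Nags) to 0.82 (Otc, SE 0.31, adjusted p = 0.153), where 2.9% of all genes were called, 0.207% higher and 2.7% lower. Cps1, Otc, Ass1, Arg1 and Tdo2 were higher in all 3 YAP-SY CCA tumors than in any YAP-SY mixed tumor, a separation that 7.99% of all genes showed, with 12.1% lower. An unadjusted p below 0.05 was found for 4 of the 10 genes, against 3951 of all 18318. In YAP-S the same differences were all below 0, from -0.85 (Tdo2, SE 0.22, adjusted p = 0.0692) to -0.04 (Sds), with 0% of all genes called. An unadjusted p below 0.05 was found for 2 of the 10 genes, against 3636 of all 18318. Tdo2 and Nags were lower in all YAP-S CCA tumors than in any YAP-S mixed tumor, as were 17.6% of all genes, and 20.2% were higher. DESeq2 called Tdo2 in both and Cps1 in YAP-SY, and limma-voom called Tdo2 in YAP-S. Tdo2 averaged 2070 ± 403 CPM in YAP-SY CCA and 1320 ± 290 CPM in YAP-SY mixed tumors, and 611 ± 96.6 CPM in YAP-S CCA and 1100 ± 190 CPM in YAP-S mixed tumors. These contrasts share their samples with the ones above. Marker lists moved with them, since the median log2 difference, CCA minus mixed, of 17 hepatocyte genes was 0.48 in YAP-SY and -0.59 in YAP-S, and that of 8 cholangiocyte markers -1.36 in YAP-SY and 0.82 in YAP-S. No hepatocyte gene and 2 of the 8 cholangiocyte markers passed in YAP-SY, and none of either list passed in YAP-S. Relative to the 17 hepatocyte genes, the differences in YAP-S were above 0 for 8 of the 10 enzymes, and Sds (0.49), Hal (0.45) and Asl (0.44) were higher in every YAP-S CCA tumor than in any YAP-S mixed tumor. Tdo2 (-0.28) was lower in each of them on that scale. Set against Alb alone, Sds (0.59) and Asl (0.55) stayed apart, while Hal (0.55) and Tdo2 (-0.17) overlapped. In YAP-SY, relative to the 17 genes, only Cps1 (0.315, pooled SD 0.228) was higher in every CCA tumor than in any mixed tumor. The other enzymes overlapped, with Nags (-0.33) and Sds (-0.002) below 0. Against Alb alone Cps1 (0.239) overlapped in YAP-SY. How many of all genes would separate on these scales was not counted, and the part of cell makeup was not tested.

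Enzyme RNA also varied between tumors of 1 group. The mean of the 10 standardized log2 levels was 0.86, 0.87 and 1.18 in YAP-SY CCA tumors 1, 6 and 8, and -0.38, -0.40 and -1.598 in YAP-S CCA tumors 3, 4 and 5. It was 0.27, -1.20 and 0.74 in YAP-SY mixed tumors 3, 5 and 9, and -0.01, -0.51 and 0.18 in YAP-S mixed tumors 2, 7 and 9. YAP-S CCA tumor 5 and YAP-SY mixed tumor 5 were the lowest of the 12, and all 3 YAP-SY CCA tumors were the highest. Tat varied by 3.25 times within YAP-S CCA and by 3.57 times within YAP-SY mixed tumors, more than any other of the 10 genes in those groups.

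**Figure D4:**
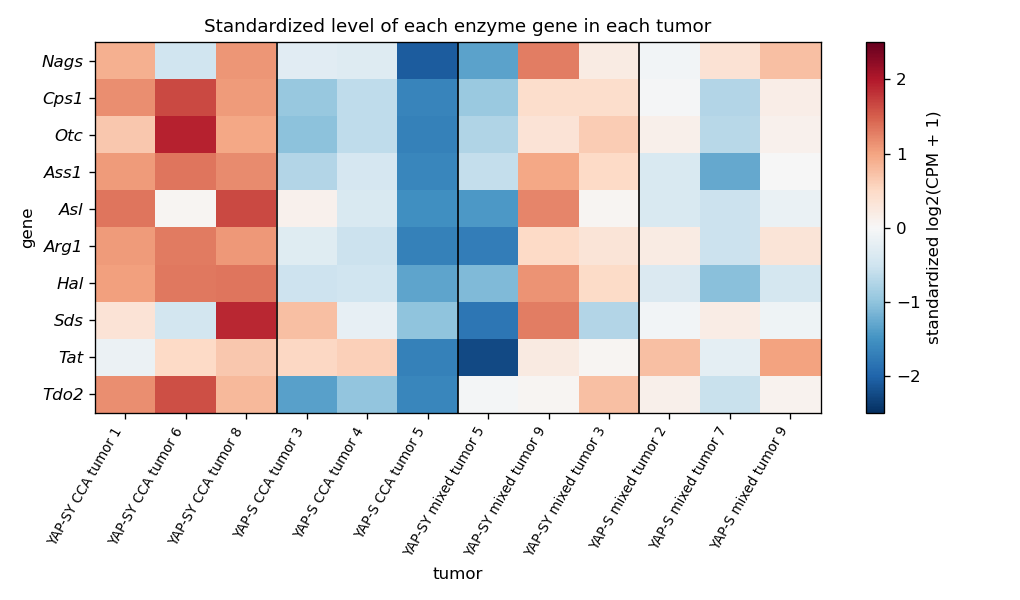
Log2(CPM + 1) of each gene, standardized to mean 0 and SD 1 over the 12 tumors, with 1 column per tumor and vertical lines between the groups. The columns of YAP-SY CCA are mostly red (means 0.86 to 1.18), and those of YAP-S CCA tumor 5 (-1.598) and YAP-SY mixed tumor 5 (-1.20) mostly blue.

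Over the 12 tumors the 45 pairs of genes had Pearson correlations of log2 level from 0.136 (Sds with Tdo2) to 0.980 (Cps1 with Otc), with a median of 0.755. Neighbours in the pathway were not always the closest, since Ass1 paired with Hal at 0.968. Tat and Tdo2, which start different pathways, paired at only 0.286. Outside the 10, of 11196 genes with a mean of at least 5 CPM, those most like the mean of the 10 were Cyp27a1 (a bile acid synthesis enzyme, r = 0.992), Ahcy (S-adenosylhomocysteine hydrolase, 0.991), Slc27a5 (bile acyl-CoA synthetase, 0.990), Gpld1 (0.984) and 1300017J02Rik (0.979). Abcb11, the bile salt export pump, was most like Cps1 (r = 0.993), and Hacl1, a peroxisomal lyase, was most like Hal (0.989). These correlations are over tumors that fall into the 4 groups, share library and scaling, and carry no p.

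The wider pathways around the 10 genes were read in the same CCA comparison from lists written out by function, and counts with TMM scaling stand against the 18.3% higher and 20.8% lower of all genes. Among 15 genes that feed or serve the urea cycle, 9 were higher and none lower in YAP-SY CCA tumors, with a median log2 fold change of 0.91. They included Slc25a13, the mitochondrial aspartate carrier (1.19), Slc38a4, an amino acid transporter (1.31), Got2, mitochondrial aspartate aminotransferase (0.88), and Glud1, glutamate dehydrogenase (0.84). Of 9 other users of arginine and ornithine, 1 was higher and 4 were lower. Oat, ornithine aminotransferase, rose (1.27), while the nitric oxide synthases Nos2 (-3.16) and Nos3 (-1.22) and the pyrimidine synthesis enzyme Cad (-0.98), which makes carbamoyl phosphate in the cytosol, fell.

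Most listed genes of amino acid breakdown also passed the test. All 6 listed genes of tyrosine breakdown and pterin recycling were higher in YAP-SY CCA tumors (median 1.11), among them the tyrosine breakdown genes Hgd (1.37), Gstz1 (1.28) and Fah (1.11) and the pterin recycling gene Pcbd1 (0.80), although Tat at the head of tyrosine breakdown did not pass. Of 8 tested genes of tryptophan breakdown other than Tdo2, 7 rose and none fell (median 0.96), among them Aadat (1.46), Kynu (1.37), Kmo (1.34) and Afmid (1.01). Of 12 tested genes of histidine, serine, glycine and threonine breakdown, 9 rose and 1 fell (median 0.89). Uroc1, the step after HAL, rose by 1.33, and so did the glycine cleavage genes Gldc (1.06) and Amt (0.96) and the folate enzyme Shmt1 (1.06). The one that fell was Sdsl (-0.91, adjusted p = 0.0399), a relative of Sds, named after its value was seen. Its edgeR call was lost in 5 of the 6 fits that left out 1 CCA tumor, all but the one without YAP-SY CCA tumor 8, and over the 6 the log2 difference ran from -1.26 to -0.69 and the adjusted p from 0.0133 to 0.136.

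Of 9 genes of methionine and cysteine metabolism, 8 rose and none fell (median 0.84), led by Mat1a, which makes S-adenosylmethionine (1.72), and Cdo1, cysteine dioxygenase (1.33), with Bhmt2 (0.83) and Csad (0.75). Of 11 genes of proline, lysine and branched-chain breakdown, 6 rose and none fell (median 0.73), among them Aass (1.30), Dbt (1.03), Bckdhb (0.93) and Aldh7a1 (0.82). The list of serine and asparagine synthesis and its transporters went the other way, with 5 of 7 lower and none higher (median -0.69). Phgdh (-1.70), Psat1 (-1.499) and Psph (-0.69), which together make serine from glucose carbon, fell, as did the amino acid transporter Slc7a5 (-1.75). No gene of any of these lists was called in mixed tumors, where edgeR called none of all genes.

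With scaling by total counts, no median of these lists changed sign, but fewer genes were called higher. Of all genes, 4.15% were called higher and 44% lower with that scaling. The numbers were then 3 of 15 for transport and nitrogen supply, 3 of 6 for tyrosine and pterin recycling, 3 of 8 for tryptophan and 4 of 12 for histidine, serine, glycine and threonine. They were 2 of 9 for methionine and cysteine and 3 of 11 for proline, lysine and branched-chain breakdown, while serine and asparagine synthesis had 5 of 7 lower. Oat and the named genes Got2, Glud1, Pcbd1, Afmid, Bhmt2, Csad, Bckdhb and Aldh7a1 were not called with that scaling. Without YAP-S CCA tumor 5, where 11.2% of all genes were called higher and 16.2% lower, the numbers higher were 6 of 15, 4 of 6, 5 of 8, 6 of 12, 5 of 9 and 5 of 11 in the same order of lists, and 5 of 7 genes of serine and asparagine synthesis were lower. Of the other arginine and ornithine users, 5 of 9 were lower and none higher with total counts, against 44% of all genes lower. Without tumor 5, 3 of 9 were lower and none higher, and Oat was not called (1.08, adjusted p = 0.0626 by edgeR), as also without YAP-SY CCA tumor 6 (0.98, adjusted p = 0.0636).

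SB1 cells allowed the 10 genes to be read in a cell line. Their values stand in a separate table, scaled apart, so no test or fold change against the tumors was made. Total counts were 25341968 to 30541185 in the 3 samples. Of the 10 genes, 8 were below 1 CPM in all 3 samples and 2 above it. Asl had 34.1, 39.6 and 38.4 CPM (37.4 ± 2.87, SD, n = 3), and Ass1 had 1.57, 1.71 and 3.91 CPM (2.40 ± 1.32). 

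The first steps were nearly or fully missing from SB1 RNA. Cps1 had 5, 11 and 3 counts (0.163, 0.437 and 0.114 CPM), Otc 0, 2 and 0 counts and Nags 0 counts in all 3 samples. A count of 0 allows up to 0.098, 0.119 and 0.114 CPM in samples 1, 2 and 3, taken as 3 counts, and covers counting error only. Arg1 had 12, 3 and 17 counts (0.392, 0.119 and 0.646 CPM), and Arg2, the mitochondrial arginase, averaged 0.0827 CPM. Of the breakdown enzymes, Tat had 14, 14 and 8 counts, Hal 8, 11 and 1, Tdo2 0, 1 and 0, and Sds 0 in all 3.

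Markers of more than 1 cell type were present in SB1 RNA. Of 8 cholangiocyte markers 7 were above 1 CPM in all 3 samples, as were 6 of 7 fibroblast and stellate markers and 11 of 17 hepatocyte genes. The cholangiocyte keratin genes Krt19 (1430 ± 345 CPM) and Krt7 (226 CPM) and Spp1 (905 CPM) were high, while Epcam was at 0.236 CPM. Alb was also present at 780 ± 286 CPM, from 612 to 1110 CPM, and the hepatocyte regulator Hnf4a at 54.9 CPM, but 5 of 17 hepatocyte genes were below 1 CPM in all 3 samples, among them Apoh (0.17 CPM) and Fgg (0.0977 CPM). Of the fibroblast and stellate markers, Dcn was at 245, Col1a1 at 117, Col3a1 at 71.9 and Pdgfrb at 63.8 CPM. Acta2 was at 13.1 and Col1a2 at only 3.39 CPM, and Lum had 0 counts in all 3 samples. Carriers and nitrogen enzymes that many cell types use were present without the cycle, with Glud1 at 315, Got2 at 332, Slc25a13 at 101 and Slc25a15, the ornithine carrier, at 36.2 CPM. All 7 listed genes of serine and asparagine synthesis were above 1 CPM in every sample, among them Psat1 at 640 and Phgdh at 253 CPM, but only 1 of 9 genes of tryptophan breakdown was. Cad stood at 260 CPM, Odc1 at 256 and Oat at 131.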

How the data were processed

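RNA was sequenced from 12 tumors and from SB1 cells. Per the labels' protocols, total RNA was extracted with a miRNeasy kit and libraries were made with the TruSeq mRNA v2 kit, which does not mark strand. Per the submitters' processing notes, STAR was the aligner and mm10 the build. The counting tool, the annotation release and the versions are not given in the sources used here. The authors deposited tumor counts per gene as whole numbers that their file calls corrected, with no statement of how, so counting noise in them may differ from that of raw counts. For SB1, raw counts were deposited in a table apart, of which 3 columns matched no sample label and were not used.

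From the counts, genes were filtered with filterByExpr by group, libraries were scaled by TMM and all 12 tumors were fitted with 1 term per group in edgeR 4.0.16 (R 4.3.3). Of the 43346 genes, 27 symbols turned into dates were restored from their identifiers. The 5 comparisons used the quasi-likelihood F-test with Benjamini-Hochberg adjustment over 18318 genes and a threshold of 0.05. The SE is the log2 fold change divided by the square root of F. Levels on a log scale used log2(CPM + 1). Alternatives were scaling by total counts, DESeq2 size factors, DESeq2 1.42.0, limma-voom (limma 3.58.1) with and without a replicate block, no count filter, a fit on the compared groups alone, and leaving out each tumor. The test script was checked on simulated counts.

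Depth ran from 30656499 to 130035221 counts per tumor, and the spread between tumors, not counting error, limits precision. The 10 genes, the lists of related genes and the 7 motifs were chosen with earlier results of these data known, so they are no independent evidence. From each related list at most the 4 genes with the smallest adjusted p in the CCA comparison are named, beside its counts in each direction. Sdsl and Cdh1 are further genes, the 1 that fell in each of their lists, named after their values were seen. Genes of like pattern are the 5 with the highest r to the mean of the 10, and the 1 most like each of Cps1 and Hal. No set test was run. A listed gene is not reported here and was left out of the lists.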

Additional observations from a re-analysis of the deposited data

Results flagged for a closer look

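The effect of YAP-SY against YAP-S differed between CCA and mixed tumors in 3 of the 10 genes, by the test of that difference in edgeR. For Otc the CCA effect exceeded the mixed effect by 1.539 on the log2 scale, with group means of 622, 186, 352 and 305 CPM in YAP-SY CCA, YAP-S CCA, YAP-SY mixed and YAP-S mixed tumors. For Tdo2 the excess was 1.498, with means of 2070, 611, 1320 and 1100 CPM in the same order. For Cps1 it was 1.341, with means of 5980, 2120, 3470 and 3120 CPM. In each of these genes YAP-SY CCA held the highest and YAP-S CCA the lowest mean, and the mixed groups lay between. The summed hepatocyte genes followed that order of the CCA groups, at 189000 to 205000 CPM in YAP-SY CCA and 72200 to 89500 CPM in YAP-S CCA tumors. By the same test 11 of 17 hepatocyte genes were called higher (median 1.116), where 5.02% of all genes were. The median over the 10 enzymes was 0.855. The part of the hepatocyte genes in these differences was not tested.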

How the results depend on the processing

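Tdo2, Otc, Hal, Cps1 and Ass1 kept their direction and call in CCA tumors in every alternative. The calls among the 10 genes were 7 with Asl added in every other method except scaling by total counts. Those methods called 24% (no count filter) to 43.6% (DESeq2) of all genes. Scaling by total counts moved the median of all genes to -0.57 and left the 10 genes 1.19 above it, against 1.18 with TMM. That scaling called 5 of the 10, split all calls into 760 higher and 8064 lower, against 3358 and 3813 with TMM, and turned Sds (-0.116) and Tat (-0.297). Leaving out 1 tumor gave 5 to 7 calls of 10, with 27.4 to 36.7% of all genes called. Tat then ran from -0.147 (without YAP-S CCA tumor 5) to 0.492. In mixed tumors calls stayed at 0 of 10, and DESeq2 called 11 of all genes. With 1 tumor left out, signs there turned for Nags (-0.361 to 0.177; above 0 without YAP-SY mixed tumor 5 or YAP-S mixed tumor 9, 0.018), Otc (-0.013 to 0.45; below 0 without YAP-SY mixed tumor 3), Asl (-0.125 to 0.531; below 0 without YAP-SY mixed tumor 9), Arg1 (-0.3 to 0.219; above 0 without YAP-SY mixed tumor 5 or YAP-S mixed tumor 9, 0.002) and Sds (-0.646 to 0.236; above 0 without YAP-SY mixed tumor 5 or 3, 0.073).

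For the difference of effects, scaling by total counts left 1 call of 10 and 4330 of all genes. With Arg1 added, DESeq2 called 4 of 10 and 4231 of all genes, and limma-voom 4 of 10 and 2939 of all genes. Leaving out 1 tumor gave 1 to 3 of 10 and 1058 to 3077 of all genes, against 2788. It gave 1 of 10 without 1 of YAP-S mixed tumors 2 and 9, of YAP-S CCA tumors 3 and 5, or without YAP-SY CCA tumor 6, and 2 without YAP-SY mixed tumor 5. For CCA against mixed tumors in YAP-S, Tdo2 became the 1 call of 10 in DESeq2, limma-voom, limma-voom with the block, the fit without a filter and the fit on the compared groups. All-gene counts, 0 in the reported fit, were 711 (total counts), 117 (DESeq2 size factors), 1513 (DESeq2), 758 (limma-voom), 991 (with the block), 570 (no filter) and 2393 (compared groups). Signs turned with total counts for Asl (0.125), Hal (0.105) and Sds (0.171), without YAP-S CCA tumor 5 for Asl (0.133; range with 1 tumor left out from -0.263), Hal (0.082; from -0.259), Sds (0.176; from -0.291) and Tat (0.003; from -0.639), and for Sds also with the block (0.048) and without YAP-S CCA tumor 4 (0.001) or YAP-S mixed tumor 7 (0.013).

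In YAP-SY, DESeq2 called 2 of 10 (Cps1 and Tdo2). All-gene counts, 532 in the reported fit, were 2006 (total counts), 1834 (DESeq2), 42 (limma-voom), 46 (with the block), 859 (no filter) and 0 (compared groups), and 0 to 595 with 1 tumor left out. Nags turned with total counts (-0.119) and without YAP-SY mixed tumor 5 (-0.09, in a range up to 0.448). An alternative chosen after seeing the data left out the 2 YAP-SY tumors whose column names begin differently from the rest, CCA tumor 8 and mixed tumor 3. It called 1 of 10 (Tdo2) in that comparison, where 3.74% of all genes were called. It turned Sds there (-0.094), in the difference of effects (-0.058) and in mixed tumors (0.072), as well as Otc in mixed tumors (-0.013). Relative to Alb alone, the CCA differences were -0.942 (Nags), -0.002 (Cps1), 0.203 (Otc), -0.234 (Ass1), -0.695 (Asl), -0.373 (Arg1), 0.013 (Hal) and 0.241 (Tdo2), and in mixed tumors -0.126 (Cps1), -0.079 (Otc) and 0.012 (Tdo2). Except where a scaling is named, the cause was not tested.

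Tumors that share a number in the labels deviated together by r = 0.615 (number 5), 0.216 (3) and 0.099 (9). The correlation fitted for the number as a block was 0.22. The labels do not say whether a shared number marks a shared origin or batch, and the reported fit did not pair the numbers. With the number as a replicate block, limma-voom called 7 of the 10 in CCA tumors, 0 in mixed tumors, 4 in the difference of effects, 1 in YAP-S and 0 in YAP-SY, the same as without the block. Of all genes, the fit with the block called 38.9%, 0%, 16.3%, 5.41% and 0.251% in the same order.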

Other observations

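Genes of both lobule zones were higher in YAP-SY CCA than in YAP-S CCA tumors. Of 12 periportal genes outside amino acid metabolism, 6 rose and 1 fell, with a median log2 fold change of 0.96 and 18.3% of all genes called higher. Hsd17b13 (1.39), the cytochrome gene Cyp2f2 (1.38), Fbp1 of gluconeogenesis (1.24) and Apof (0.93) rose. The one that fell was Cdh1, E-cadherin (-0.755, adjusted p = 0.0349), named after its value was seen. Its edgeR call was lost in 5 of the 6 fits that left out 1 CCA tumor, all but the one without YAP-SY CCA tumor 1, and over the 6 the log2 difference ran from -0.88 to -0.61 and the adjusted p from 0.0364 to 0.123. It was lost also without YAP-SY CCA tumor 8 and YAP-SY mixed tumor 3 together (-0.79, adjusted p = 0.0672), an alternative added after seeing the data. Of 12 pericentral genes, the list of the opposite zone, 7 rose and none fell, with a median of 0.95. Slco1b2, a bile acid and drug uptake carrier (1.69), Cyp7a1, the rate-limiting enzyme of bile acid synthesis (1.67), Slc1a2, a glutamate transporter (1.57), and Cyp2e1 (1.51) rose. For the difference of effects between CCA and mixed tumors, 5 of the 12 periportal genes and none of the pericentral genes were called higher by edgeR, with medians of 1.06 and 0.84 and 5.02% of all genes called higher there, and the difference between the lists was not tested.

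Of 17 regulators known to act on amino acid enzyme genes, 8 were higher and none lower in YAP-SY CCA tumors, with a median of 0.71. Hnf4a (1.09) and Cebpa (1.09), which drive hepatocyte genes, the glucocorticoid receptor gene Nr3c1 (0.71) and the co-activator gene Ppargc1a (0.90) rose. With scaling by total counts, where 4.15% of all genes were called higher and 44% lower, the numbers higher were 4 of 12 periportal and 5 of 12 pericentral genes, and 2 of 17 regulators, with 2 of 17 lower; Apof, Cebpa, Nr3c1 and Ppargc1a were then not called. Without YAP-S CCA tumor 5, where 11.2% of all genes were called higher, they were 6, 5 and 7. In mixed tumors no listed gene of either zone and no regulator was called.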
